A study of Mus musculus with 6 samples.

Results

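The genes of the unfolded protein response and the integrated stress response were examined in tumor-associated macrophages (TAMs) of wild-type (WT) mice and of mice that lack the complement receptor C5aR. The list held 38 genes chosen by symbol with earlier results of these data known, and all 38 were found among the 56980 genes measured. It was made up of 13 chaperones and folding enzymes of the endoplasmic reticulum (ER), 4 genes of ER-associated degradation, 3 stress sensors with Xbp1, 8 transcription factors and feedback genes of the integrated stress response, 8 enzymes and transporters driven by ATF4, and the secreted factor Fgf21. The TAMs came from C57BL/6 mice, either WT or C5aR-/-, whose tumors grew from intraperitoneally injected ID8 cells. ID8 is a mouse ovarian cancer line, and its cells carried no deletion of C5aR, whereas every host cell of a C5aR-/- mouse did. The mice were female and were purchased at 6 to 8 weeks of age, and the tumors were taken 2 months after injection. TAMs were sorted as live CD45+CD11b+Ly6G-F4/80+ cells, and each group held 3 libraries. More mice per group were described for this experiment than the 3 libraries per group analysed here, and the labels do not tie the libraries to separate mice, so the p-values measure only the spread between these libraries.

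The ER folds secreted and membrane proteins with the help of chaperones, and unfolded proteins are sensed there by IRE1, PERK and ATF6. IRE1 splices the mRNA of XBP1 and ATF6 is cut into a transcription factor, and both then raise chaperone and degradation genes. PERK is 1 of several kinases that phosphorylate eIF2, which slows translation in general but lets ATF4 mRNA be translated. ATF4 drives genes of amino acid transport and synthesis, and because other kinases that sense amino acid shortage, heme shortage or viral RNA act on eIF2 too, this arm is called the integrated stress response (ISR). Macrophages are active secretory cells, and IRE1 and XBP1 also take part in their cytokine response.

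Levels are given as TPM, transcript abundances corrected for transcript length that sum to 1000000 in each library, so they can be compared between genes. C5ar1, the deleted gene, had 86.5, 37.3 and 16.2 TPM in the WT libraries and 0.38, 0.11 and 0.05 TPM in the C5aR-/- libraries. Between 14393 and 15015 genes reached 1 TPM in a library, and mitochondrial genes took from 5.604% to 9.31% of the TPM. The macrophage markers were present in every library, but their summed level ran from 2683 to 9392 TPM in WT and from 2671 to 9320 TPM in C5aR-/- TAMs. Epithelial tumor cell markers were present as well, with a sum of 2205 to 2490 TPM in WT and 2001 to 2605 TPM in C5aR-/- TAMs, although the gate should remove CD45-negative cells. This sum was nearly all Krt8, Krt18, Krt19 and Wt1, whereas Krt7, Epcam, Cdh1 and Cldn4 each had at most 16.05 TPM in any library. The sums overlapped, but Krt8 alone of the list lay apart and higher. It had 465, 455 and 460 TPM in WT and 757.5, 624 and 743 TPM in C5aR-/- TAMs. Krt19 overlapped, with 892, 831 and 1102 TPM in WT and 745, 1001 and 433 TPM in C5aR-/- TAMs. The sum thus hides differences between single genes. It does not by itself name the source as tumor cells. In such bulk samples, fewer cells of a type and less RNA per cell cannot be told apart.

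Promoter sequence was shown for the genes in which a known stress element was found, since chaperone genes and ATF4 target genes are known for different elements. The promoters were RefSeq sequences of build GRCm38.p6 that covered 250 bases before and 50 bases after the start site, and 33 of the 38 genes had one. No entry was matched for Aldh1l2, Atf6, Hyou1, Manf or Slc7a5. The ER stress element (ERSE), through which ATF6 and NF-Y act on chaperone genes, was searched on both strands as CCAAT followed after 9 bases by CCACG. It was found in 7 of the 33 genes (21.2%) and in 37 of the 27025 genes of the promoter table (0.137%). Of the 11 chaperones and folding enzymes with a promoter, 6 held it (54.5%), and the seventh gene was Syvn1 of the degradation group. In the following stretches, written 5′ to 3′ along the gene, the capitals mark CCAAT and CCACG, or their reverse complements where the element lies on the other strand.
Hspa5 (chr2:34772005-34772063, plus strand): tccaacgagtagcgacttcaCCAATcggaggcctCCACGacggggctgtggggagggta
Hsp90b1 (chr10:86705513-86705676, minus strand): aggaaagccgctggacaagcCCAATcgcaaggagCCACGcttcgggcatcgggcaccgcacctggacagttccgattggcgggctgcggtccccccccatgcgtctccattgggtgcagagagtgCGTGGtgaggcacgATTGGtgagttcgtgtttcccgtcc
Pdia6 (chr12:17266471-17266529, plus strand): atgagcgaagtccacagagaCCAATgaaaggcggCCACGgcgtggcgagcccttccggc
Canx (chr11:50325780-50325838, minus strand): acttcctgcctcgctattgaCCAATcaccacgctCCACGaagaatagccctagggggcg
Creld2 (chr15:88819500-88819558, plus strand): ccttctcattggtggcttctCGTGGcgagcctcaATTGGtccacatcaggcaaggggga
Dnajc3 (chr14:118937807-118937865, plus strand): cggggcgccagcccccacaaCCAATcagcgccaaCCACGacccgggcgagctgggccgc
Syvn1 (chr19:6046512-6046570, plus strand): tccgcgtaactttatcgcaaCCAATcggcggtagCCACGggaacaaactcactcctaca

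All these matches lie upstream of the start, from -212 in Hsp90b1 to -26 in Syvn1, and Hsp90b1 holds the element at 2 places, once on each strand. The C/EBP-ATF response element (CARE), to which ATF4 binds together with a C/EBP partner, was searched on both strands as TGATGNAAN. It was found in 5 of the 33 genes (15.2%) and in 1215 of all 27025 genes (4.5%). The CARE genes were Asns, Chac1, Trib3 and Fgf21 of the ISR groups, and Herpud1 of the degradation group. The match in Trib3 lies just after its start site, at 14 to 22, and is not printed. No promoter held both elements, and the unfolded protein response element (TGACGTGG, which shares CGTGG with the reverse of ERSE) was found in 0 of the 33 genes and in 0.714% of all genes. The capitals below mark the fixed letters of the CARE match or of its reverse complement.
Asns (chr6:7693210-7693252, minus strand): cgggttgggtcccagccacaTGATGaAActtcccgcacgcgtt
Chac1 (chr2:119351028-119351076, plus strand): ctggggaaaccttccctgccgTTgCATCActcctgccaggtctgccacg
Fgf21 (chr7:45615602-45615650, minus strand): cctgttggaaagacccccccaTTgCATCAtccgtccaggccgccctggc
Herpud1 (chr8:94386296-94386344, plus strand): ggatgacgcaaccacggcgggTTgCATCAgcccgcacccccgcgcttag

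**Figure D1:**
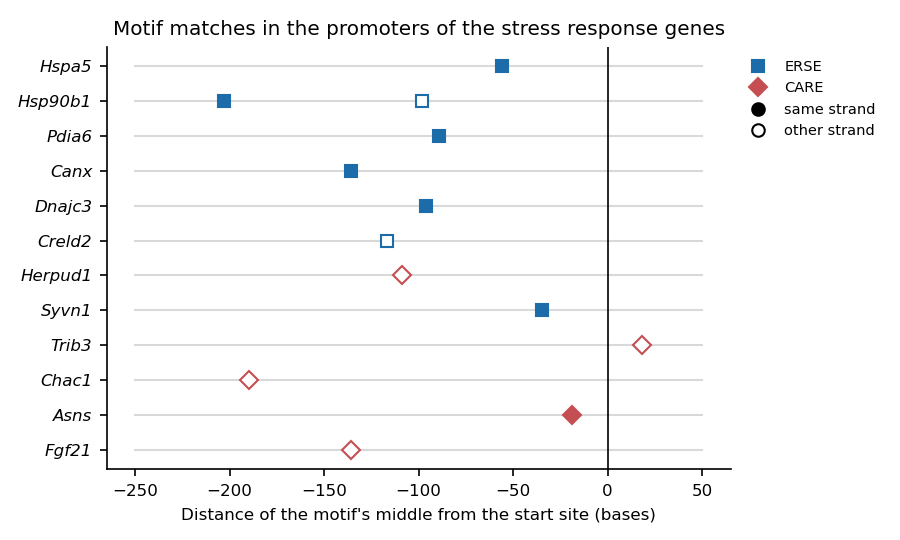
Position of ERSE (blue squares) and CARE (red diamonds) matches in the promoters of the listed genes, as the distance of the motif's middle from the start site in bases; open symbols lie on the strand opposite to the gene. Except for Trib3 the matches lie before the start, with ERSE in 7 genes and CARE in 5.

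The chaperone and degradation genes were lower in C5aR-/- TAMs, and most ISR genes were higher. All 17 chaperone and degradation genes had a negative log2 difference (C5aR-/- minus WT, on log2(TPM + 1)), with a median of -0.45. Of the 15 tested ISR factors and ATF4-driven genes, 11 had a positive difference, with a median of 0.52. Over all 14776 tested genes, 8206 had a negative and 6570 a positive difference, with a median of -0.05. The differences were of modest size, mostly under 2-fold. With an adjusted p below 0.05 and a 2-fold change both required, limma called 0 of the 36 tested genes and 0 of all genes tested (0%). With the p unadjusted and the 2-fold change kept, Chac1 alone of the 36 tested genes passed as higher, beside 2.13% of all genes, and 0 passed as lower, beside 2.84%. Where an unadjusted p below 0.05 sufficed, whatever the fold, 4 of the 36 were higher and 9 lower, beside 6.06% and 8.37% of all genes. The count of 9 was 4 without WT TAM 1, 5 without WT TAM 2, and 4 without C5aR-/- TAM 3. With median-of-ratios scaling the balance turned, to 6 higher and 4 lower, and with quantile normalization it was 6 higher and 8 lower. Without C5aR-/- TAM 1, limma called 349 of all genes at the adjusted threshold, and none of them was on the list.

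A more direct view of the spread is whether the 3 C5aR-/- libraries lie apart from the 3 WT libraries. Of the 36 tested genes, 11 lay apart and lower in C5aR-/- TAMs and 5 apart and higher, beside 12.5% and 8.84% of all tested genes. For each of these 16 genes, a two-sided exact permutation test gave p = 0.1, the smallest value that 3 libraries against 3 allow. The 11 lower genes were 8 chaperones and folding enzymes, Syvn1, Xbp1 and Ddit3, and the 5 higher genes were Atf4, Chac1, Sesn2, Shmt2 and Slc3a2. The level of WT TAM 1 was the highest of the 6 libraries for 17 of 17 chaperone and degradation genes. Without WT TAM 1 the median of these 17 genes was -0.24 in place of -0.45, 16 of the 17 remained lower, and 9 of the 17 lay apart, beside 21.6% of all genes.

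**Figure D2:**
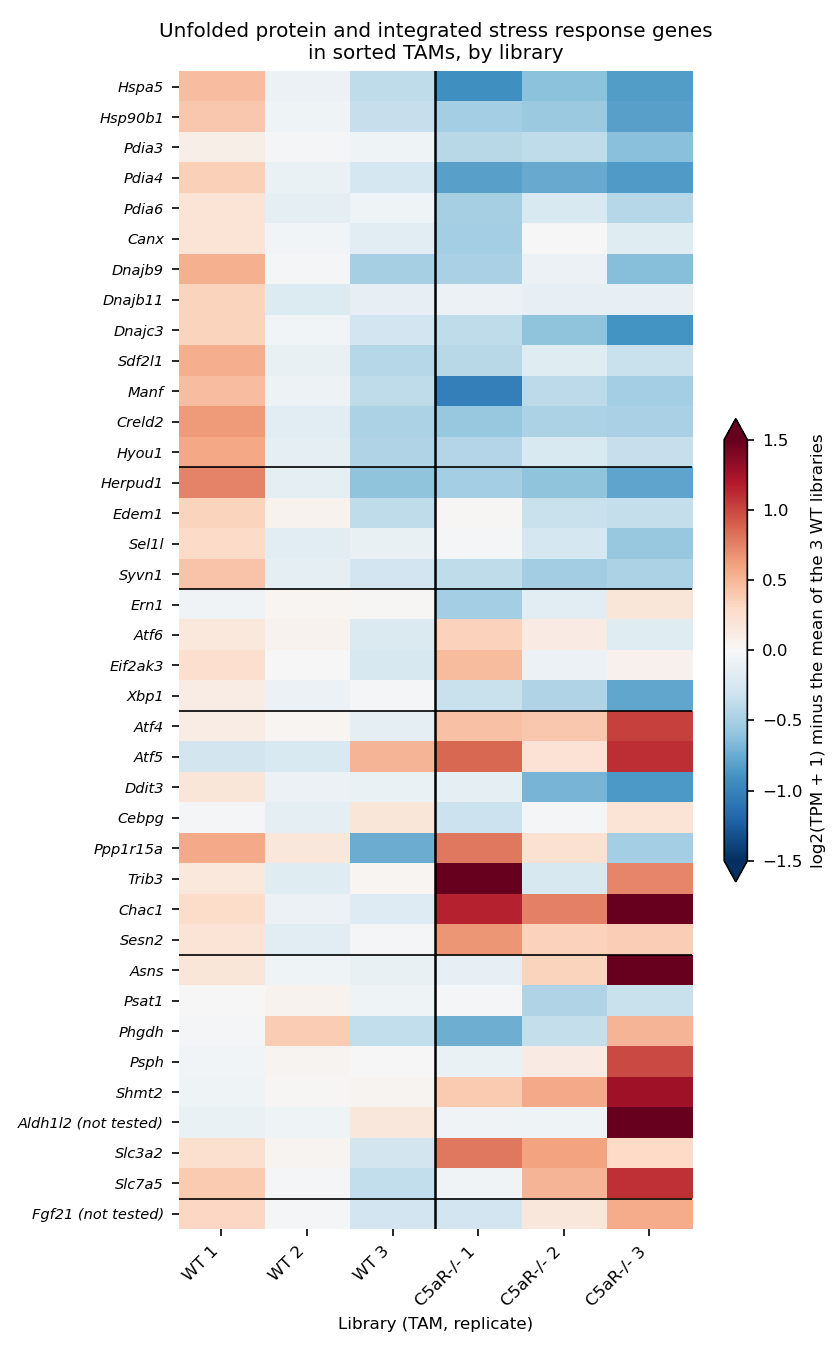
Log2(TPM + 1) of each gene in each library, minus the mean of the 3 WT libraries (blue lower, red higher; the color scale stops at 1.5 on either side); horizontal lines separate the 6 functional groups. The chaperone and degradation genes are red in WT TAM 1 and mostly blue in the C5aR-/- libraries. The ISR factors and feedback genes are reddest in C5aR-/- TAM 1 and C5aR-/- TAM 3. The ATF4-driven genes are reddest in C5aR-/- TAM 3, and their median in C5aR-/- TAM 1 is near the WT mean (-0.053).

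The chaperones were led by Hspa5, which encodes BiP, the Hsp70 chaperone that holds unfolded proteins and keeps the sensors inactive. Hspa5 had 2188, 1500 and 1225 TPM in the WT libraries and 840.1, 1041 and 889 TPM in the C5aR-/- libraries. The groups did not overlap, and the WT libraries were spread more widely (1638 ± 496 TPM, SD, n = 3) than the C5aR-/- libraries (923 ± 105 TPM, SD, n = 3). The log2 difference of Hspa5 was -0.79 (standard error, SE, 0.24, limma adjusted p = 0.233). Hsp90b1 encodes GRP94, the Hsp90 of the ER, and had 742, 536 and 442 TPM in WT and 395, 381 and 318 TPM in C5aR-/- TAMs. Its groups were also apart, with a log2 difference of -0.63 (SE 0.22). By level, Hspa5 ranked 43rd, 89th and 110th of all genes in the WT libraries and 163rd, 138th and 165th in the C5aR-/- libraries.

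The protein disulfide isomerases form and shuffle disulfide bonds, and the groups lay apart for all 3 that were listed. Pdia4 (chr6:47796141-47813430, GRCm38) had 335, 245 and 219 TPM in WT and 149, 155 and 145 TPM in C5aR-/- TAMs. The 3 C5aR-/- libraries were nearly level (150 ± 4.77 TPM, SD, n = 3), and all lay under the lowest WT library. With a log2 difference of -0.80 (SE 0.18) and an adjusted p of 0.142 from limma, Pdia4 had the smallest p of the 36 genes. Pdia3, which works with calnexin on glycoproteins, had 448, 414 and 403 TPM in WT and 314, 324 and 273 TPM in C5aR-/- TAMs. The spread of Pdia3 was small in both groups (422 ± 23.6 and 304 ± 27.1 TPM, SD, n = 3), and WT TAM 1 did not stand far from the other WT libraries. Its log2 difference was -0.47 (SE 0.13, limma adjusted p = 0.200). Pdia6 had 247, 195 and 206 TPM in WT and 152, 183 and 159 TPM in C5aR-/- TAMs, apart but with a smaller log2 difference of -0.39.

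Manf, a small secreted ER protein induced by stress, had 535, 368 and 297 TPM in WT and 191, 295 and 273 TPM in C5aR-/- TAMs. The groups lay apart by little, since WT TAM 3 at 297 TPM and C5aR-/- TAM 2 at 295 TPM were close, and the log2 difference was -0.64 (SE 0.27), or -0.41 without WT TAM 1. Creld2, a stress-induced ER protein, had 201, 115 and 92.8 TPM in WT and 86.8, 92.5 and 91.9 TPM in C5aR-/- TAMs. Its separation again rested on a narrow gap, and without WT TAM 1 its log2 difference was -0.19 in place of -0.51. Dnajc3, a co-chaperone of BiP that also inhibits PERK, had 66.0, 50.4 and 42.3 TPM in WT and 39.9, 33.9 and 27.6 TPM in C5aR-/- TAMs, with a log2 difference of -0.62 (SE 0.21).

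The remaining 5 chaperone genes overlapped between the groups. Canx, the lectin chaperone calnexin, had 377, 318 and 294 TPM in WT and 229, 327 and 288 TPM in C5aR-/- TAMs. Hyou1, an Hsp110-type chaperone, had 136, 82.8 and 66.0 TPM in WT and 66.8, 77.0 and 70.9 TPM in C5aR-/- TAMs, so that WT TAM 3 lay below every C5aR-/- library. Sdf2l1, a partner of BiP and its J proteins, showed the same order, with 107, 67.3 and 54.1 TPM in WT and 54.7, 64.4 and 57.6 TPM in C5aR-/- TAMs. Of the J proteins that hand clients to BiP, Dnajb9 had 78.04, 52.4 and 37.8 TPM in WT and 37.9, 50.5 and 34.2 TPM in C5aR-/- TAMs. Dnajb11 had 96.1, 66.0 and 69.7 TPM in WT against 71.6, 69.6 and 70.0 TPM, and it alone of the 17 genes turned to a positive difference (0.05) without WT TAM 1.

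In sum over the 13 chaperone genes, the WT libraries held 5556, 4010 and 3447 TPM and the C5aR-/- libraries 2628, 3093 and 2698 TPM. These genes thus took 0.556%, 0.401% and 0.345% of the transcripts of the WT libraries and 0.263%, 0.309% and 0.270% of those of the C5aR-/- libraries. The macrophage marker sum of the same libraries was 9392, 3803 and 2683 TPM in WT and 9320, 5339 and 2671 TPM in C5aR-/- TAMs. Within WT both sums ran in the same order, and within C5aR-/- TAMs they did not. The macrophage sum overlapped between the groups and the chaperone sum did not, and the part of macrophage content in the chaperone levels was not tested.

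**Figure D3:**
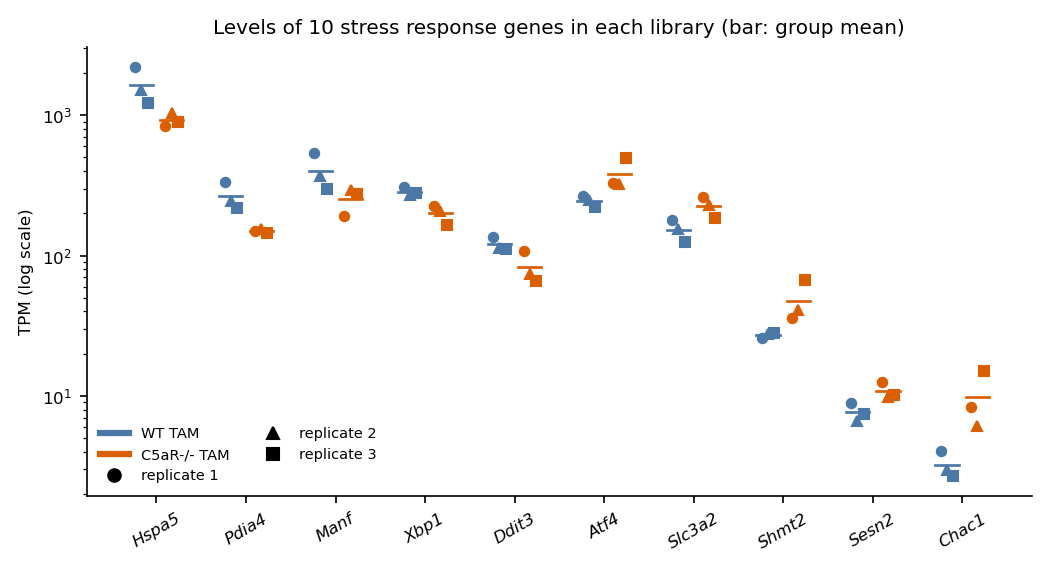
TPM on a log scale of 10 genes in the WT (blue) and C5aR-/- (orange) libraries; each point is a library, its shape gives the replicate number and the bar is the group mean. All 10 were taken from the listed genes whose groups lie apart (11 lower and 5 higher of 36 tested), so their lack of overlap follows from the choice. Hspa5, Pdia4, Manf, Xbp1 and Ddit3 are lower and Atf4, Slc3a2, Shmt2, Sesn2 and Chac1 higher in C5aR-/- TAMs.

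ER-associated degradation draws misfolded proteins out of the ER for the proteasome. Syvn1, the ubiquitin ligase HRD1 at its center, had 115, 78.1 and 69.8 TPM in WT and 65.9, 59.6 and 61.7 TPM in C5aR-/- TAMs, apart and with a log2 difference of -0.45 (SE 0.20) that was -0.24 without WT TAM 1. Herpud1, a partner of this ligase complex, had 287, 154 and 112.38 TPM in WT and 120, 112.39 and 98.2 TPM in C5aR-/- TAMs. The Herpud1 groups overlapped at WT TAM 3, whose level lay under that of C5aR-/- TAM 1 and 2, and its difference went from -0.63 to -0.26 without WT TAM 1. Edem1, which picks out mannose-trimmed glycoproteins, had 61.1, 49.98 and 36.9 TPM in WT and 48.8, 38.1 and 37.5 TPM in C5aR-/- TAMs. Sel1l, the adaptor of HRD1, had 43.9, 31.6 and 33.0 TPM in WT and 35.4, 29.7 and 23.8 TPM in C5aR-/- TAMs, and these 2 genes overlapped between the groups. The sum of the 4 genes was 508, 314 and 252 TPM in WT and 270.0, 240 and 221 TPM in C5aR-/- TAMs, which overlapped.

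The stress sensors overlapped between the groups. Ern1, which encodes IRE1, had 20.3, 21.4 and 21.3 TPM in WT and 14.5, 18.6 and 24.0 TPM in C5aR-/- TAMs. Atf6 had 31.0, 28.7 and 23.5 TPM in WT and 35.2, 30.1 and 24.3 TPM in C5aR-/- TAMs. Eif2ak3, which encodes PERK, had 27.9, 23.1 and 19.5 TPM in WT and 32.6, 21.8 and 24.5 TPM in C5aR-/- TAMs. The log2 differences of Ern1, Atf6 and Eif2ak3 were -0.16, 0.10 and 0.15 with SEs of 0.20, 0.19 and 0.21. By contrast Xbp1 (chr11:5520659-5525893), the transcription factor whose mRNA IRE1 splices, had 308, 268 and 281 TPM in WT and 226, 208 and 166 TPM in C5aR-/- TAMs. All C5aR-/- libraries lay under all WT libraries, and the log2 difference of Xbp1 was -0.52 (SE 0.15, limma adjusted p = 0.224). The values are summed per gene, so the spliced and unspliced forms of Xbp1 mRNA were not separated.

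Xbp1 is also abundant in plasma cells. The other 7 plasma cell markers together had 97.7, 82.7 and 60.2 TPM in WT and 170.5, 92.1 and 73.4 TPM in C5aR-/- TAMs, and Tnfrsf17 was at 0 in all 6 libraries. This sum overlapped between the groups. Sdc1, which epithelial cells express too, alone of the 7 lay apart and higher, and without it the sum was 67.1, 52.3 and 14.5 TPM in WT and 111, 38.9 and 11.2 TPM in C5aR-/- TAMs. The remaining markers overlapped, with log2 differences of -0.34 for Mzb1, -0.76 for Irf4 and -0.50 for Pou2af1, the direction of Xbp1, and of 0.52 for Jchain and 0.51 for Prdm1. The part of plasma cells in the level of Xbp1 was not tested.

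Of the ISR factors, Atf4 (chr15:80255184-80257541) had 264, 249 and 222 TPM in WT and 330.2, 323 and 496 TPM in C5aR-/- TAMs. The C5aR-/- libraries all lay above the WT libraries, with C5aR-/- TAM 3 highest, and the log2 difference was 0.62 (SE 0.20, limma adjusted p = 0.246). Ddit3 (chr10:127290774-127296288), which encodes CHOP, the factor of prolonged ER stress that PERK and ATF4 induce, went the other way. It had 136, 113 and 112 TPM in WT and 108, 73.6 and 65.6 TPM in C5aR-/- TAMs, with a log2 difference of -0.57 (SE 0.21, limma adjusted p = 0.300). The ratio of Atf4 to Ddit3 was therefore 1.94, 2.20 and 1.98 in the WT libraries and 3.05, 4.38 and 7.56 in the C5aR-/- libraries. This ratio was chosen after the values of both genes were seen and was not tested.

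Chac1, a glutathione-degrading enzyme induced by ATF4, had the largest difference of the 36 tested genes at a low level. It had 4.08, 2.96 and 2.69 TPM in WT and 8.38, 6.08 and 15.1 TPM in C5aR-/- TAMs. The lowest C5aR-/- library lay above the highest WT library, and the log2 difference was 1.28 (SE 0.34, limma adjusted p = 0.186). Without C5aR-/- TAM 3 it was 0.96, under the 2-fold limit, and 0 of the 36 genes then passed the unadjusted threshold as higher. Sesn2, a stress-induced inhibitor of mTORC1, had 8.90, 6.64 and 7.41 TPM in WT and 12.6, 9.90 and 10.1 TPM in C5aR-/- TAMs, apart with a log2 difference of 0.46 (SE 0.19).

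Atf5, a close relative of ATF4 that the ISR induces, had 14.0, 14.4 and 24.9 TPM in WT and 31.9, 20.2 and 38.2 TPM in C5aR-/- TAMs, with overlap at C5aR-/- TAM 2 and a log2 difference of 0.73 (SE 0.31). Trib3, a pseudokinase that restrains ATF4 and CHOP, had 8.81, 6.77 and 8.01 TPM in WT and 24.0, 6.46 and 13.7 TPM in C5aR-/- TAMs. The C5aR-/- libraries of Trib3 thus held both the highest and the lowest value of the 6. Ppp1r15a, which encodes the eIF2 phosphatase subunit GADD34, had 189, 144 and 76.0 TPM in WT and 221, 150 and 89.3 TPM in C5aR-/- TAMs. Its spread within each group was far larger than the difference between the groups (log2 difference 0.17, SE 0.43). Cebpg, a dimer partner of ATF4, had 18.2, 16.7 and 21.2 TPM in WT and 14.7, 18.2 and 21.6 TPM in C5aR-/- TAMs, a log2 difference of -0.05 (SE 0.19).

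**Figure D4:**
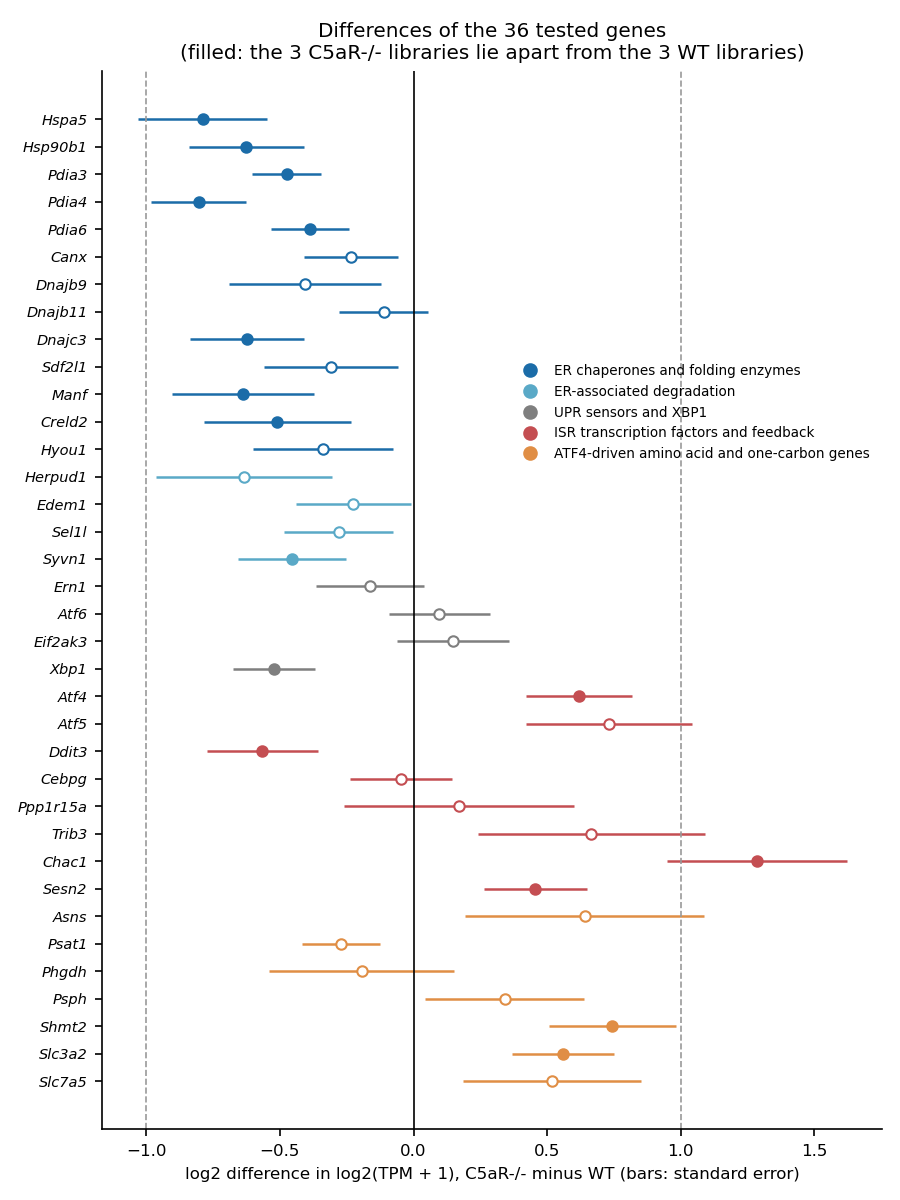
Log2 difference in log2(TPM + 1), C5aR-/- minus WT, of the 36 tested genes with its standard error from limma, colored by functional group; filled points are genes whose 3 C5aR-/- libraries lie apart from the 3 WT libraries, and dashed lines mark a 2-fold difference. The 17 chaperone and degradation genes lie left of 0, and Chac1 lies farthest to the right at 1.28.

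The ATF4-driven enzymes and transporters were not of 1 pattern. Slc3a2 (chr19:8706882-8723369), the heavy chain (CD98) that brings amino acid exchangers to the membrane, had 178, 155 and 124 TPM in WT and 261, 229 and 185 TPM in C5aR-/- TAMs. Shmt2 (chr10:127517123-127522444), the mitochondrial serine hydroxymethyltransferase that feeds the folate cycle, had 26.0, 27.5 and 28.0 TPM in WT and 36.02, 40.7 and 66.9 TPM in C5aR-/- TAMs. Both lay apart, with log2 differences of 0.56 (SE 0.19) and 0.74 (SE 0.24), and without C5aR-/- TAM 3 that of Shmt2 was 0.48. The WT libraries of Shmt2 were within 27.2 ± 1.01 TPM (SD, n = 3), so that every C5aR-/- library lay well outside their spread.

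Asparagine synthetase, Asns, had 20.3, 17.0 and 16.5 TPM in WT and 16.4, 22.9 and 60.4 TPM in C5aR-/- TAMs. Its log2 difference of 0.64 (SE 0.45) rested on C5aR-/- TAM 3, and without that library it was 0.11. Psph, the last enzyme of serine synthesis, was likewise high in C5aR-/- TAM 3 alone, with 9.39, 10 and 9.58 TPM in WT and 8.96, 10.6 and 20.2 TPM in C5aR-/- TAMs, and without it the difference was 0.01 in place of 0.34. Slc7a5, the light chain LAT1 that pairs with CD98, had 23.5, 17.5 and 13.4 TPM in WT and 17.0, 25.7 and 39.0 TPM in C5aR-/- TAMs, which overlapped. Aldh1l2, a mitochondrial folate enzyme, did not pass the filter on low levels, with 0.64, 0.68 and 0.98 TPM in WT and 0.70, 0.69 and 4.58 TPM in C5aR-/- TAMs.

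The first enzymes of serine synthesis had negative differences. Phgdh, the first of the pathway, had 67.4, 89.1 and 52.6 TPM in WT and 40.7, 52.8 and 97.5 TPM in C5aR-/- TAMs, a log2 difference of -0.19 (SE 0.35). Psat1, the next enzyme, had 83.0, 85.1 and 79.0 TPM in WT and 80.9, 59.9 and 65.0 TPM in C5aR-/- TAMs, with a difference of -0.27 (SE 0.15) and overlap at C5aR-/- TAM 1. The secreted ISR hormone Fgf21 was close to undetected, with 0.51, 0.20 and 0 TPM in WT and 0, 0.37 and 0.79 TPM in C5aR-/- TAMs, and it was not tested. C5aR-/- TAM 3 had the highest level of the 6 libraries for 10 of the 16 ISR and ATF4-driven genes, and for 6 of the 8 enzymes and transporters. Without C5aR-/- TAM 3, 11 of the 15 tested genes were still higher and their median was 0.42.

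The sums of the 2 arms can be set side by side in each library. The 13 chaperones together had 13.6, 9.98 and 10.6 times the TPM of the 8 ATF4-driven enzymes and transporters in the WT libraries, and 5.69, 6.998 and 5.01 times in the C5aR-/- libraries. The sum of the 8 ATF4-driven genes was 408, 402 and 324 TPM in WT and 462, 442 and 539 TPM in C5aR-/- TAMs. Both the sum and the ratio lay apart between the groups, but they were chosen after the values were seen and were not tested. Slc3a2 was the largest part of the ATF4-driven sum in every library, with 178, 155 and 124 TPM in WT and 261, 229 and 185 TPM in C5aR-/- TAMs. Of the 8 genes, Slc3a2 and Shmt2 alone lay apart, so the sum does not show that this group as a whole was higher.

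Sequence and direction can be set beside each other only as a description. All 7 genes with an ERSE match had lower levels in C5aR-/- TAMs, and 6 of them (all but Canx) lay apart. But so did Pdia3 and Pdia4, in whose promoters the element was not found in these letters. The 7 genes belong to the chaperone and degradation genes, of which 17 of 17 were lower and 9 lay apart. Their shared direction therefore cannot set the element apart from the group. Of the 5 genes with a CARE match, Chac1, Trib3 and Asns had positive differences, Herpud1 a negative one, and Fgf21 was not tested.

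A second list of 121 further genes of these pathways was examined in the same way, of which 114 passed the filter. Its median difference was 0.04, 13 of the 114 genes lay apart and higher and 12 apart and lower, and 4 passed the unadjusted threshold with 2-fold change as higher and 0 as lower. Over all tested genes 8.84% lay apart and higher and 12.5% apart and lower, and 2.13% and 2.84% passed that threshold, so the shares of groups apart in this list were near those of all genes. Among the further ER folding genes the directions were mixed. Of 19 tested folding and disulfide enzymes 10 were higher and 9 lower, with a median of 0.01. P4hb, the most studied disulfide isomerase, had 494, 438 and 439 TPM in WT and 455, 543 and 458 TPM in C5aR-/- TAMs. Ero1l, the oxidase that recharges disulfide isomerases, was apart and higher, with 18.5, 16.3 and 18.4 TPM in WT and 29.7, 35.1 and 37.97 TPM in C5aR-/- TAMs (log2 difference 0.91, SE 0.15, limma adjusted p = 0.0930). Fkbp14, a prolyl isomerase of the ER, was apart and lower, with 29.7, 33.0 and 29.5 TPM in WT and 20.2, 16.6 and 20.6 TPM in C5aR-/- TAMs. P4hb, Ero1l and Fkbp14 were picked after their values were seen.

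Calr, the soluble partner of calnexin and one of the 2 genes of the second list with an ERSE match, did not follow the other chaperones. It had 1169, 734 and 843 TPM in WT and 488, 1453 and 1592 TPM in C5aR-/- TAMs, so that the C5aR-/- libraries held its lowest and its highest values. Calr lies at chr8:84841850-84846934 (GRCm38), and its 20 tested neighbors from Ccdc130 to Trir had a median deviation from the WT mean of -0.35, 1.61 and 2.22 (log2) in C5aR-/- TAM 1, 2 and 3. The C5aR-/- libraries with the high levels of Calr were thus those in which its neighbors were high, and the part of this region in the level of Calr was not tested.

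The other lists of ER genes had medians nearer to 0 than the chaperones. Of 14 ER translocation genes 9 were lower and 4 of these lay apart, with a median of -0.06, and Spcs2, a signal peptidase subunit, had 181, 159.5 and 164 TPM in WT and 114, 136 and 122 TPM in C5aR-/- TAMs. Of 19 further degradation genes 14 were lower and 4 lay apart, with a median of -0.19, beside 12.5% of all tested genes apart and lower. Of 18 tested genes of sensors and eIF2, 7 were higher and 11 lower, with a median of -0.05. In that list the eIF2B subunits Eif2b2 and Eif2b5, which reload eIF2 with GTP, lay apart and higher, with log2 differences of 0.62 (SE 0.22) and 0.37 (SE 0.14). Eif2b1 was also apart and higher (0.33), whereas Eif2b3 (0.02) and Eif2b4 (-0.16) overlapped between the groups. Spcs2 and these subunits were also picked after their values were seen.

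The further ISR genes leaned to higher levels. Of 17 tested ISR and CHOP targets 14 were higher (median 0.38), with 4 apart and higher and 1 apart and lower. The 3 lower genes, named after the values were seen, were Ddit4 (log2 difference -0.58), Atf3 (-0.65) and Bcl2l11 (-0.53). Ddit4 lay apart, and Atf3 and Bcl2l11 overlapped between the groups. Of 14 tested genes of amino acid transport and synthesis 14 were higher (median 0.36), of which 3 lay apart. Of 13 genes of tRNA charging and export 10 were higher (median 0.21), and Mars, the methionine enzyme, alone lay apart. These counts of genes apart stand beside 8.84% of all tested genes apart and higher and 12.5% apart and lower. In C5aR-/- TAM 1, 2 and 3 the median deviation from the WT mean (log2) was 0.24, 0.12 and 0.72 for the amino acid list. It was 0.0095, 0.11 and 0.40 for the tRNA list, so both were highest in C5aR-/- TAM 3. For the ISR and CHOP targets it was 0.49, 0.35 and 0.26. Mthfd1l, a mitochondrial enzyme of the folate cycle that works downstream of Shmt2, had 4.69, 4.79 and 6.72 TPM in WT and 10.2, 13.4 and 18.0 TPM in C5aR-/- TAMs. Its groups were clearly apart, and the log2 difference was 1.199 (SE 0.25, limma adjusted p = 0.133). Eif4ebp1, the translation repressor 4E-BP1 and an ATF4 target, had 29.5, 19.4 and 23.9 TPM in WT and 34.9, 55.6 and 78.3 TPM in C5aR-/- TAMs, apart with a log2 difference of 1.13 (SE 0.31). Fkbp11, a prolyl isomerase of secretory cells, had 14.5, 12.4 and 9.87 TPM in WT and 22.1, 19.5 and 66.0 TPM in C5aR-/- TAMs, with a difference of 1.27 that was 0.73 without C5aR-/- TAM 3. Nupr1, a stress-induced chromatin protein, overlapped between the groups, with 201, 126 and 93.2 TPM in WT and 149, 468 and 427 TPM in C5aR-/- TAMs. These 4 genes are those past the unadjusted threshold with 2-fold change, and without C5aR-/- TAM 3 or without WT TAM 2 the count was 1, whereas without C5aR-/- TAM 1 it was 8.

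**Figure D5:**
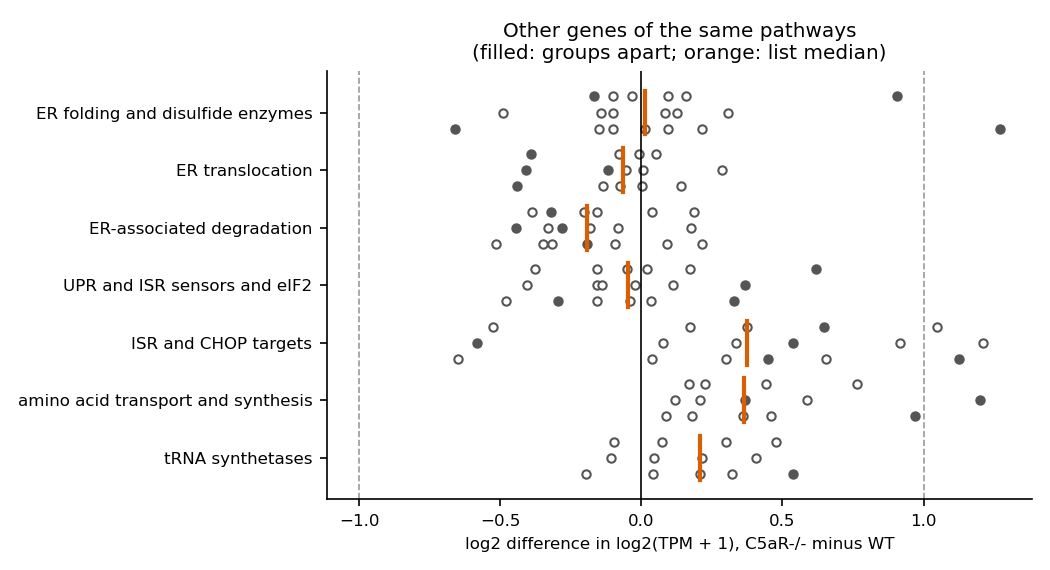
Log2 difference in log2(TPM + 1), C5aR-/- minus WT, of the 114 tested further genes by list; each point is a gene, filled where the groups lie apart, and the orange line is the median of the list. The medians of the folding, translocation and sensor lists lie within 0.1 of 0, and those of the ISR target, amino acid and tRNA synthetase lists lie at 0.38, 0.36 and 0.21.

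Markers of other cell types differed between the groups as well. Neutrophil markers summed to 599 to 2228 TPM in WT and 24.1 to 352 TPM in C5aR-/- TAMs, with 5 of 6 genes apart and lower. Mesothelial markers summed to 590.5 to 820 TPM in WT and 384 to 577 TPM in C5aR-/- TAMs, with 3 of 5 genes apart and lower and 1 higher. The higher mesothelial gene was Msln, with 145, 135 and 180 TPM in WT and 268, 284 and 288 TPM in C5aR-/- TAMs. Mast cell markers summed to 83.9 to 137 TPM in WT and 61.4 to 90.5 TPM in C5aR-/- TAMs, with 4 of 6 genes apart and lower and 1 higher. The higher mast cell gene was Kit, with 28.9, 33.1 and 29.8 TPM in WT and 54.7, 68.0 and 85.4 TPM in C5aR-/- TAMs. Cpa3, Cma1, Mcpt4 and Tpsb2 had at least 10.45 TPM in each WT library and at most 4.85 TPM in each C5aR-/- library. Fibroblast markers had 404 to 605 TPM in WT and 439 to 557 TPM in C5aR-/- TAMs, B cell markers 33.7 to 166 and 9.16 to 168 TPM, and T cell markers 14.5 to 63.9 and 12.1 to 37.6 TPM. Within the fibroblast list Col1a2 lay apart and lower, and Col1a1 ran from 1.21 to 236 TPM in C5aR-/- TAMs. Dendritic cell markers had 26.5 to 31.5 and 17.2 to 44.7 TPM, and endothelial markers 13.4 to 18.8 and 11.9 to 28.8 TPM. The part of these cells in the levels of the chaperone and ISR genes was not tested.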

How the data were processed

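RNA of TAMs was measured in 6 libraries, 3 WT and 3 C5aR-/-, grouped by the sample titles. The authors used fastp for trimming, HISAT2 for alignment and StringTie for transcript estimates. The submitters' processing notes also name RSEM, DESeq2 and build mm10, and the annotation release and tool versions are not given in the sources used here. The deposited values are TPM per Ensembl gene, normalized for length and library total by the authors (their methods name FPKM). TPM keep no depth, so no counting error can be given and count tests were not run. The authors' group means in the table were not used.

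Symbols and positions came from GENCODE M21 (GRCm38), which named 52073 of 56980 IDs. The test was limma 3.58.1 (R 4.3.3; lmFit, eBayes with trend) on log2(TPM + 1) over 14776 genes with at least 1 TPM in at least 3 libraries, with Benjamini-Hochberg adjustment, and was tested on simulated data. Differences on this scale understate changes of low genes. Python 3.11.15 with pandas 2.3.3 and scipy 1.17.1 was used for the rest. Named genes were all 38 listed genes, further pathway genes past an unadjusted p of 0.05 with 2-fold change, C5ar1, and others named as picked later. The listed genes, the further lists and the markers were chosen with earlier results of these data known, and counts at any fold change or of groups apart were added after the values were seen.

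Alternatives were a pseudocount of 0.1, no filter, the replicate number as a block, median-of-ratios scaling, quantile normalization, and leaving out each library. The labels do not say whether the replicate numbers pair the libraries, and the main fit did not pair them.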

Additional observations from a re-analysis of the deposited data

How the results depend on the processing

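Of the 36 tested genes, 29 kept their direction in all 11 alternatives. In the alternatives that used all libraries, Cebpg alone turned, to 0.002 with median-of-ratios scaling. With 1 library left out, 7 genes ranged across 0 (log2): Dnajb11 from -0.21 to 0.053, Ern1 from -0.34 to 0.0092, Atf6 from -0.027 to 0.23, Eif2ak3 from -0.011 to 0.28, Cebpg from -0.17 to 0.0905, Ppp1r15a from -0.20 to 0.51 and Phgdh from -0.55 to 0.0743. The genes lower at an unadjusted p below 0.05, whatever the fold, numbered 9, and 4 with median-of-ratios scaling (higher genes 4 and 6). This count ranged from 4 to 11 with 1 library left out, the lowest without WT TAM 1 or C5aR-/- TAM 3 (5 without WT TAM 2), and that of higher genes from 3 to 5. Genes past the unadjusted threshold with 2-fold change ranged from 0 (without C5aR-/- TAM 3) to 2 (without C5aR-/- TAM 1 or 2), and of the further pathway genes from 1 (without WT TAM 2 or C5aR-/- TAM 3) to 8 (without C5aR-/- TAM 1). The median of all 36 genes ranged from -0.33 to -0.10 (without WT TAM 1), of the chaperone and degradation genes from -0.60 to -0.24 (without WT TAM 1), and of the ISR and ATF4-driven genes from 0.42 to 0.59. Over all genes, limma called from 0 to 349 at the adjusted threshold with 1 library left out (349 without C5aR-/- TAM 1, 1 without C5aR-/- TAM 2 and 3 without C5aR-/- TAM 3), among them none of the 38. At the unadjusted threshold it called 314 higher and 419 lower genes, which ranged from 240 to 585 and from 278 to 635, highest without C5aR-/- TAM 1 and, for the lower genes, lowest without WT TAM 2. Without C5aR-/- TAM 1, Mthfd1l (log2 difference 1.39) and Eif4ebp1 (1.43) passed in limma. Over the alternatives their limma adjusted p ran from 0.0444 to 0.539 and from 0.0401 to 0.661. With the replicate number as a block, 0 genes passed the adjusted threshold, and 6 of the 36 genes were higher and 9 lower at an unadjusted p under 0.05. The deviations of same-numbered libraries correlated at 0.186, -0.011 and 0.273, and those of differently numbered libraries at -0.23 to 0.093. Whether the numbers pair the libraries was left unresolved, and the main fit did not pair them. The causes of these changes were not tested. The unknown depth leaves the precision of genes at a few TPM, such as Chac1 and Mthfd1l, unknown.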
